A study of Mus musculus with 7 samples.

Results

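Marker genes of astrocytes were examined for Fos-bound chromatin in the mouse hippocampus. They were Sox9, Gfap, S100b, Aqp4, Gja1, Glul, Aldoc and Aldh1l1. They are 8 of the 21887 protein-coding genes of the gene table used. The choice was by name and not by a measured value, though earlier results of these data were known. Chromatin immunoprecipitation with sequencing (ChIP-seq) was run with a monoclonal anti-Fos antibody on hippocampi of wild-type C57BL/6J mice aged 2 months. The saline group received PBS. The kainic acid group received 2 intraperitoneal injections of kainic acid, a glutamate receptor agonist that provokes seizures, at 10 mg/kg and 30 min apart. Those animals had seizures of level 4, and the hippocampi were taken 1 hour after the first injection. The labels give 3 libraries in each group and 1 input library from saline tissue, which has no peak list here. The number of animals behind a library is not stated there, nor that the libraries came from separate animals, so the p-values below measure only the spread between these samples.

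Astrocytes are glial cells that take up glutamate and potassium released by neurons, carry water and ions to blood vessels, and are joined to each other by gap junctions. Fos pairs with a Jun protein to form AP-1, a transcription factor that binds the sequence TGAGTCA or its reverse complement TGACTCA, and the Fos gene is switched on within minutes of strong neuronal firing. The tissue was the whole hippocampus, so a peak near an astrocyte gene does not say in which cell type Fos was bound, and fewer cells with a bound site and weaker binding per cell cannot be told apart.

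A peak was counted for a gene where it overlapped the span of the gene, or 50 kb on either side, by at least 1 bp. Peaks of all lists that overlapped were merged into regions, and a region with support from 2 or 3 of the kainic acid lists is called a shared region here. Around the 8 genes lay 34 regions with a kainic acid peak. Of these, 5 had support from all 3 libraries, 8 from exactly 2 and 21 from 1. The 13 shared regions are 38.2% of the 34, beside 40.3% for all kainic acid regions of the genome. The 5 in all 3 lists are 14.7%, beside 17.9%. None of the 13 shared regions held a saline peak. The saline lists held only 7, 3277 and 2 peaks, beside 26862 shared regions in the genome. Most shared regions near any gene thus could not hold one, and the share over all of them was not counted.

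Of the 8 genes, 6 had a shared region within 50 kb: Sox9 had 5, S100b 3, Aldh1l1 2, and Aqp4, Glul and Aldoc 1 each. Gfap and Gja1 had none. Over all protein-coding genes, 62.7% had a shared region, so 6 of 8 is close to the background. A region in all 3 kainic acid lists lay near Sox9, Aqp4 and Aldh1l1, 3 of 8, where the background was 42.5%. Sox9 stood highest among the 8, with 4.74 shared regions per 100 kb, at percentile 95.7 of all protein-coding genes (100 is the densest), and S100b followed with 2.79, at percentile 84.4. Aldh1l1 had 1.35, Aldoc 0.955, Glul 0.911 and Aqp4 0.822. The median of the 8 was 0.933, beside 0.872 over all protein-coding genes.

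The counts differed strongly between libraries. Whole lists ran to 15009, 63197 and 29650 peaks in kainic acid replicates 1, 2 and 3, and to 7, 3277 and 2 peaks in saline replicates 1, 2 and 3. Near the 8 genes, kainic acid replicates 1, 2 and 3 had 6, 34 and 14 peaks and saline replicate 2 had 3. The other saline lists had none. Of the 21 regions in 1 kainic acid list, 19 came from replicate 2, 2 from replicate 3 and 0 from replicate 1. Of the 8 regions in exactly 2 lists, 7 rested on replicates 2 and 3. Without kainic acid replicate 2, 5 shared regions were left and 3 of 8 genes had one, namely Sox9, Aqp4 and Aldh1l1, beside 42.6% of all genes. Without replicate 3 it was 6 regions and 4 genes, S100b beside those 3, against 45.2% of all genes.

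**Figure D1:**
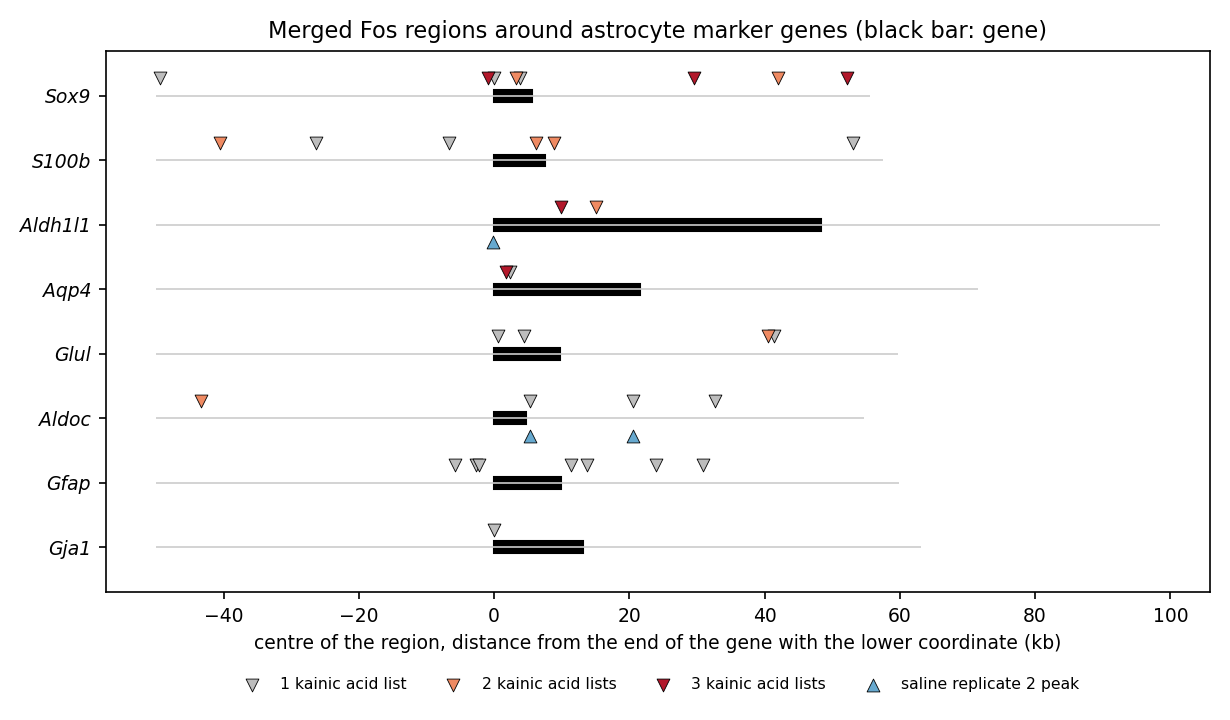
Regions around each gene, placed by the distance of their centre in kb from the end of the gene with the lower coordinate. Black bars are the genes, triangles above them are kainic acid regions coloured by the number of lists, and triangles below are regions with a saline replicate 2 peak; Gfap and Gja1 have regions of 1 list only.

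Promoter sequences from RefSeq (build GRCm38.p6, from 250 bases before to 50 after a start site) were at hand for 6 of the 8 genes, all but Aqp4 and Sox9. Gja1 and Aldh1l1 are shown because theirs were the only 2 of 7 member promoters that a peak overlapped. Kainic acid replicate 2 overlapped 1 of the 7 and 10.7% of all 32851 promoters of the table. Saline replicate 2 overlapped 1 of the 7 and 4.53% of all. Kainic acid replicates 1 and 3 overlapped 0 of the 7, and 1.19% and 3.49% of all. The Gja1 sequence, chr10:56377050-56377299 on the plus strand, ends at the base before the start site. Its capitals mark an AP-1 site at 56377281 to 56377287, whose last base lies 13 bases before the start site.
Gja1: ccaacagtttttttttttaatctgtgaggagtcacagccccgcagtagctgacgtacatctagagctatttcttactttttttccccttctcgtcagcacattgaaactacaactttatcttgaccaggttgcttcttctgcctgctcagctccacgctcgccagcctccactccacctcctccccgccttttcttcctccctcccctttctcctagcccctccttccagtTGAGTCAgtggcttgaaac

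The peak over this site was called in kainic acid replicate 2 only. It ran from 56377128 to 56377541, across the start site, and its summit at 56377254 lay 27 bp before the AP-1 site. Its fold of 4.40 ranked 31326 of 63197 in the list. It was the only peak of any list within 50 kb of Gja1, a gene with no other protein-coding gene in its window. Kainic acid replicates 1 and 3 had no call there.

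The Aldh1l1 sequence, chr6:90550543-90550767 on the plus strand, ends at the base before the gene's span. Its capitals mark the part under a peak of saline replicate 2.
Aldh1l1: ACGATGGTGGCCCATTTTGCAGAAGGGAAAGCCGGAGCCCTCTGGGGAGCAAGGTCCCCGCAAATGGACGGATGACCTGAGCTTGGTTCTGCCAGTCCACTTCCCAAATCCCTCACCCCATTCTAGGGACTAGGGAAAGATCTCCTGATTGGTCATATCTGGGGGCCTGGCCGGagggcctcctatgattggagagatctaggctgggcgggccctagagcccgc

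This saline peak, at 90550404 to 90550716, ended 52 bp before the span of Aldh1l1. No kainic acid list had a peak there, and the nearest kainic acid peak began 9542 bp after the start site. The search for AP-1 sites covered both strands, and it found 1 in the 7 member promoters, that of Gja1. Over all 32851 promoters of the table, 5.20% held TGAGTCA or TGACTCA. The cyclic AMP response element TGACGTCA, bound by CREB, was in none of the 7 and in 1.79% of all. Promoters overlapped by a peak held an AP-1 site in 36.7%, 13.4% and 25.5% of cases for kainic acid replicates 1, 2 and 3, and in 3.29% for saline replicate 2. A match of letters describes a sequence and is not a binding site.

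Sox9, a transcription factor that directs the formation of astrocytes and stays on in the mature cells, had 3, 7 and 6 peaks in kainic acid replicates 1, 2 and 3 and 0 in each saline list. In peaks per 100 kb of its window these were 2.84, 6.63 and 5.68, a mean of 5.05 ± 1.97 (SD, n = 3). Every kainic acid list thus lay above every saline list. The lowest of them, 2.84, was larger than the SD of the kainic acid libraries, which themselves ran from 2.84 to 6.63. The saline values of 0 came from lists of only 7, 3277 and 2 peaks. The gene spans chromosome 11, 112782210 to 112787757, and no other protein-coding gene reached into its window.

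The strongest shared region of Sox9 lay at 112780935 to 112781832, 378 bp below the lower end of the gene. Its fold was 5.13, 10.9 and 3.85 in kainic acid replicates 1, 2 and 3. Fold is the authors' ratio of a peak to its local background, and the rank of a peak is given as a percentile of its own list, where 0 is the highest fold. On that scale the region ranked at 29.0, 4.13 and 55.3, so its standing by fold differed widely between libraries. Ranked by −log10 q in place of the fold, it stood higher in every list, at 8.55, 1.12 and 17.6. A further peak of replicate 2 alone, at 112782030 to 112782451 with a fold of 5.02, covered the lower end itself.

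Of the other 4 shared regions of Sox9, 1 was inside the gene at 112785210 to 112785744, called in replicates 2 and 3 near the bottom of both lists (89.9 and 94.2). Its peaks, at 112785509 to 112785744 in replicate 2 and at 112785210 to 112785515 in replicate 3, overlapped only at their ends. The remaining 3 shared regions lay 23.6, 36.1 and 46.3 kb above the higher end. Those at 112811388 to 112812159 and at 112834096 to 112834607 were in all 3 lists, with folds of 5.58, 8.22 and 3.72 and of 3.60, 7.02 and 4.97. Sox9 was the only one of the 8 genes with a shared region when peaks were held to a −log10 q of at least 10, where it kept 2 regions and 36.1% of all genes had one. With peaks merged only at an overlap of at least 50% of the shorter, Sox9 had 4 shared regions.

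The genes with the most similar pattern to Sox9 over the 6 lists, by Euclidean distance in log2(peaks per 100 kb + 0.5), were Marveld1 (0.0265), Ncdn (0.145) and Nptx2 (0.145). Marveld1 had the same counts as Sox9, 3, 7 and 6 peaks after kainic acid and none in saline.

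Gfap, the intermediate filament protein most used to stain astrocytes, had 0, 7 and 0 peaks in kainic acid replicates 1, 2 and 3 and 0 in each saline list. Its mean was 2.12 ± 3.68 (SD, n = 3) peaks per 100 kb, all from replicate 2, and the kainic acid and saline lists overlapped at 0. The gene lies on the minus strand of chromosome 11, 102887336 to 102897200. The peak nearest to its start site began 1365 bp upstream, at 102898565 to 102898838, and had the highest fold of the 7, 5.55, at percentile 28.4. A second stood 3736 bp upstream. Of the other 5 peaks, 3 lay 2101 to 5480 bp downstream over Ccdc103, and 2 lay upstream over Kif18b. Their folds ran from 3.01 to 4.10 and their percentiles from 58.6 to 93.5. With a reach of 100 kb, Gfap had 3 shared regions, so the nearest ones lay beyond 50 kb.

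S100b, a calcium-binding protein of astrocytes, had 1, 6 and 3 peaks in kainic acid replicates 1, 2 and 3 and 0 in each saline list. The mean was 3.10 ± 2.34 (SD, n = 3) peaks per 100 kb, and the groups did not overlap. The gene is on the plus strand of chromosome 10, 76253836 to 76261319. Its strongest shared region was inside the gene, at 76259381 to 76260730, with folds of 10.3 in replicate 2 and 2.99 in replicate 3. These ranked at 4.98 and 89.9 of their lists, the widest gap among the 13 shared regions when the strongest peak of each list is taken. Replicate 2 had 2 peaks in this region, and the stronger had its summit at 76260544. The weaker, with a fold of 6.02 at percentile 23.0, had its summit at 76259756, close to that of replicate 3 at 76259766. The gap thus sets peaks with different summits side by side. Another shared region lay 1030 bp downstream, and the last 40.3 kb upstream, inside Prmt2. None of the 3 was in all 3 lists, and without kainic acid replicate 2 S100b had no shared region. With peaks merged only at an overlap of at least 50% of the shorter, it had 2.

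Aqp4, the water channel of astrocyte endfeet, had 1, 2 and 1 peaks in kainic acid replicates 1, 2 and 3 and 0 in each saline list. Its mean was 1.10 ± 0.475 (SD, n = 3) peaks per 100 kb, and the groups did not overlap. All its peaks lay inside the gene (chromosome 18, 15389394 to 15410982) within about 1 kb of each other. The shared region at 15390849 to 15391610 was in all 3 lists with folds of 4.32, 4.63 and 4.73 and percentiles of 50.9, 43.7 and 30.7. The spread of its percentile, 10.3 (SD, n = 3), was the smallest among the 5 regions in all 3 lists. Gja1, connexin 43, the main gap junction protein of astrocytes, had 0, 1 and 0 peaks in kainic acid replicates 1, 2 and 3, the 1 peak being that at its start site shown above. Its mean was 0.295 ± 0.510 (SD, n = 3) peaks per 100 kb, the lowest of the 8 genes.

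Glul, glutamine synthetase, which turns glutamate taken up by astrocytes into glutamine, had 0, 4 and 1 peaks in kainic acid replicates 1, 2 and 3 and 0 in each saline list. Its mean was 1.52 ± 1.90 (SD, n = 3) peaks per 100 kb, and the groups overlapped at 0. The gene is on the plus strand of chromosome 1, 153899929 to 153909723. The only shared region, at 153940155 to 153940630, lay 30.4 kb downstream and near the bottom of both lists, with folds of 2.91 and 3.29 and percentiles of 95.4 and 80.3 in replicates 2 and 3. Inside the gene, replicate 2 alone had 2 peaks, the first of them 434 bp after the start site with a fold of 4.18.

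Aldoc, aldolase C, a glycolytic enzyme of astrocytes in the forebrain, had 0, 5 and 1 peaks in kainic acid replicates 1, 2 and 3 and 0, 2 and 0 in the saline lists. The means were 1.91 ± 2.53 and 0.637 ± 1.10 (SD, n = 3 each) peaks per 100 kb, and the groups overlapped. The gene is on the plus strand of chromosome 11, 78323073 to 78327781, in a window with 6 other protein-coding genes. Its shared region, at 78279252 to 78280268, lay 42.8 kb upstream inside 2610507B11Rik. Both saline peaks overlapped a peak of kainic acid replicate 2 in part. One saline peak, at 78328338 to 78328595, began 557 bp downstream of Aldoc and lay over Pigs. It shared 32 bp with the kainic acid peak at 78328088 to 78328369, with the summits 264 bp apart and folds of 3.36 in saline and 2.66 after kainic acid. The other, at 78343529 to 78343730, lay over Unc119 and shared 107 bp with its kainic acid peak, with the summits 160 bp apart and folds of 3.05 and 3.21. Folds are not scaled between libraries, so these pairs give no change in binding. They ranked at 86.7 and 94.2 in the saline list and at 98.1 and 89.9 in that of kainic acid.

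Aldh1l1, a folate enzyme whose promoter is used to mark astrocytes in transgenic mice, had 1, 2 and 2 peaks in kainic acid replicates 1, 2 and 3 and 0, 1 and 0 in the saline lists. The means were 1.12 ± 0.389 and 0.225 ± 0.389 (SD, n = 3 each) peaks per 100 kb. Saline replicate 2 and kainic acid replicate 1 both had 1 peak, so the groups touched. The gene spans chromosome 6, 90550768 to 90599171. All kainic acid peaks were inside it. The region at 90560335 to 90561049 was in all 3 lists, with folds of 5.52, 5.67 and 3.44 and percentiles of 22.3, 26.6 and 73.4. The one at 90565576 to 90566175 was in replicates 2 and 3, with folds of 6.56 and 3.26. The saline peak at the promoter shown above had a fold of 4.48 and ranked 1134 of 3277 in its list. The gene table has no exons, so whether positions inside a gene are exonic or intronic was not determined.

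**Figure D2:**
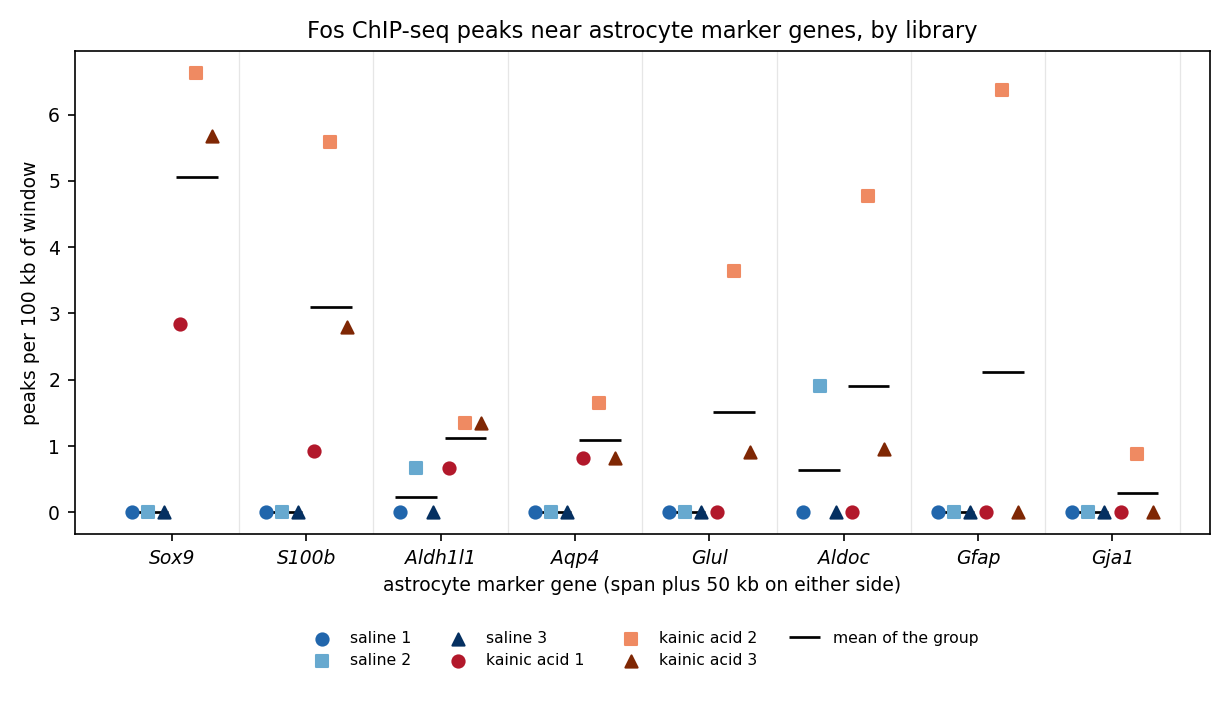
Peaks per 100 kb of window for each gene (horizontal axis) in each of the 6 libraries, with the mean of each group as a line. All 3 kainic acid libraries lie above all saline libraries for Sox9, S100b and Aqp4, and replicate 2 alone sets the mean of Gfap and Gja1.

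Every kainic acid list exceeded every saline list at Sox9, S100b and Aqp4, 3 of 8 genes, where 33.5% of all protein-coding genes met the same condition. An exact permutation test (two-sided, 20 assignments) gave p = 0.1 for these 3 genes, the smallest value that 3 libraries against 3 allow. After Benjamini-Hochberg adjustment over all 21887 genes, the exact permutation p was 0.299. The adjusted exact permutation p was 0.494 for Aldh1l1 (unadjusted p = 0.2), 0.685 for Glul (unadjusted p = 0.4) and 1 for Aldoc, Gfap and Gja1. No gene of the table could pass 0.05 in this design, and 0 had an unadjusted p under 0.05. Without kainic acid replicate 1 the condition held at 5 of 8 genes, beside 53.9% of all genes. A peak of saline replicate 2 lay near 2 of the 8, Aldoc and Aldh1l1, and near 30.2% of all genes.

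Summed over the 921 kb of the 8 windows, kainic acid replicates 1, 2 and 3 had 0.652, 3.69 and 1.52 peaks per 100 kb. The mean was 1.96 ± 1.57 (SD, n = 3), against 0.109 ± 0.188 (SD, n = 3) in saline. The difference of 1.85 was larger than the SD of either group, and it was 0.978 without kainic acid replicate 2. Over the windows of all protein-coding genes the same libraries had 0.739, 3.24 and 1.50 peaks per 100 kb. The density near astrocyte markers was thus 0.882, 1.14 and 1.02 times that near genes in general, a mean of 1.01 ± 0.129 (SD, n = 3). This ratio differed from 1 by less than its SD. Over the windows of all genes the group means were 1.82 ± 1.28 after kainic acid and 0.0635 ± 0.110 in saline (SD, n = 3 each). The groups thus differed by a similar amount near genes in general.

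Position within the windows was less even. The spans of the 8 genes, 121 kb in all, held 5 shared regions, which is 4.15 per 100 kb, beside 1.70 for the spans of all protein-coding genes. These lay in Aldh1l1 (2), S100b, Aqp4 and Sox9, so 4 of 8 genes had one inside, beside 28.5% of all genes. The one in Sox9 joined peaks of replicates 2 and 3 that overlapped only at their ends. From the ends out to 10 kb there were 2 shared regions, 1.25 per 100 kb, beside 1.29. From 10 to 50 kb there were 6, or 0.938 per 100 kb, beside 1.19. The values for all genes count a region once for each gene it is near, and the difference at the spans rests on 5 regions and was not tested.

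The folds of peaks near the 8 genes were spread widely over their lists. The median percentile was 40.0 for the 6 peaks of replicate 1, 63.6 for the 34 of replicate 2 and 76.0 for the 14 of replicate 3, so the typical peak of replicates 2 and 3 ranked in the lower part. The best percentiles were 21.0, 4.13 and 26.4. No peak near the 8 genes exceeded a fold of 5.58, 10.9 or 4.97 in the 3 lists, whose medians over all peaks were 4.36, 4.40 and 3.97. The number of reads at the summit, solved from the deposited fold and p, ran from 14 to 49, 12 to 91 and 15 to 54 in kainic acid replicates 1, 2 and 3, and from 15 to 19 for the 3 saline peaks. Of the 57 peaks, 33 had 20 reads or fewer at the summit, and a region missing from a list means only that it was not called.

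**Figure D3:**
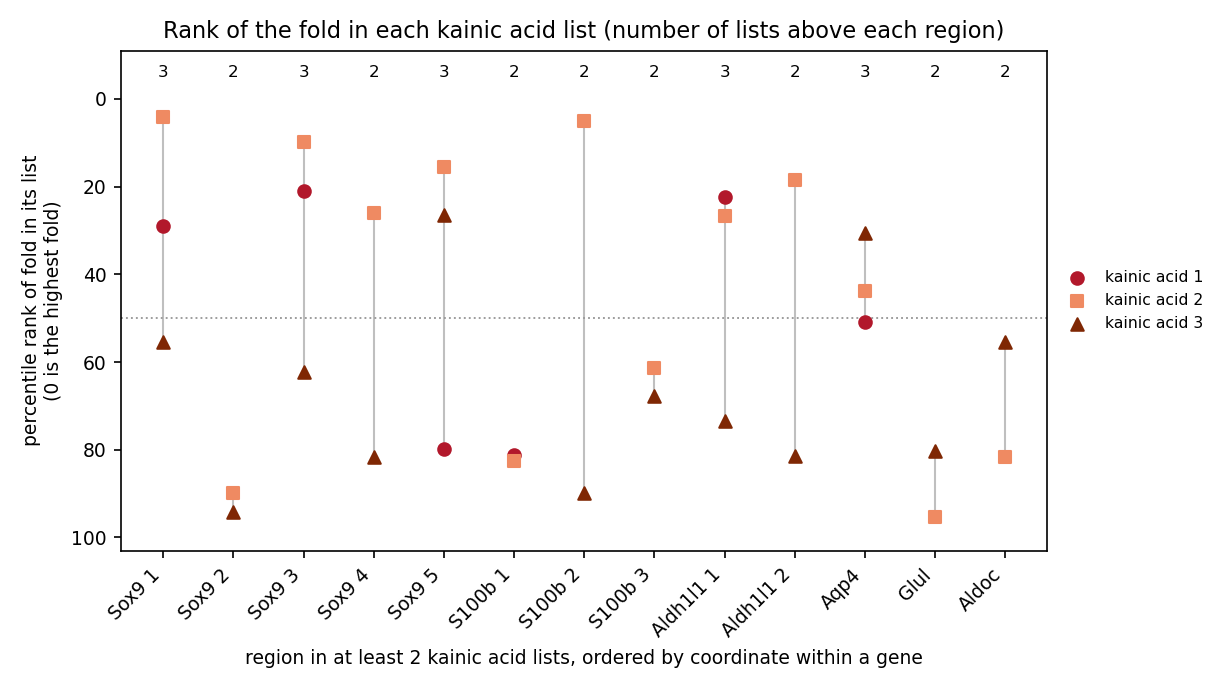
Percentile rank of the fold (0 at the top is the highest fold of a list) in each kainic acid list for the 13 shared regions, with the number of lists written above. Grey lines join the lists of a region, and the gap is widest for the region inside S100b (4.98 and 89.9).

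Further lists of astrocyte genes were counted in the same way. Of 24 further astrocyte genes (transporters, channels, receptors and secreted proteins), 19 had a shared region, with a median of 0.877 per 100 kb. Slc4a4, a bicarbonate transporter, had 8 and Megf10, Slc39a12 and Sparcl1 had 4 each, whereas Atp1b2, Fgfr3, Gjb6, Ndrg2 and S1pr1 had none. Of 14 genes that mark reactive astrocytes, 10 had one, with a median of 1.80 per 100 kb. Lcn2, lipocalin 2, had 6 and Hspb1, Osmr, Stat3 and Vim had 4 each, and Cd44, Cp, Nes and S1pr3 had none. Of 10 transcription factors of the astrocyte lineage, 8 had one, with a median of 1.96. Zbtb20 had 35 and Nfia 16, and Hes5 and Sox2 had none. Spans differ between these lists, with medians of 9.83 kb for the 8 markers, 17.3 kb for the 24, 11.8 kb for the reactive genes and 63.5 kb for the transcription factors. With equal numbers of peaks in the kainic acid lists, 13 of the 24, 9 of the 14 and 8 of the 10 had a shared region, beside 2 of the 8 markers, and these differences were not tested.

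Markers of other cell types were set beside them, 8 genes each. All 8 neuronal markers had a shared region, with a median of 4.37 per 100 kb and Syt1 (31) and Map2 (20) highest. Of the oligodendrocyte lineage markers 4 had one, with a median of 1.37 and Mbp (12) and Mog (5) highest. Of the microglial markers 7 had one, with a median of 0.948, Cx3cr1 (6), C1qa (3) and P2ry12 (3) highest and none near Csf1r. Of the endothelial markers 6 had one, with a median of 0.719, Slc2a1 (4) highest, then Cldn5, Esam and Flt1 (2 each), and none near Ly6c1 and Tek. A region in all 3 kainic acid lists was near 8 of 8 neuronal markers, 3 of 8 astrocyte markers, 2 oligodendrocyte, 5 microglial and 3 endothelial markers. With equal numbers of peaks in the kainic acid lists, 8 of 8 neuronal markers and 2 of 8 astrocyte markers (Sox9 and Aqp4) had a shared region, beside 46.3% of all genes. The neuronal markers also had longer spans, with a median of 65.9 kb, and the difference between the lists was not tested.

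**Figure D4:**
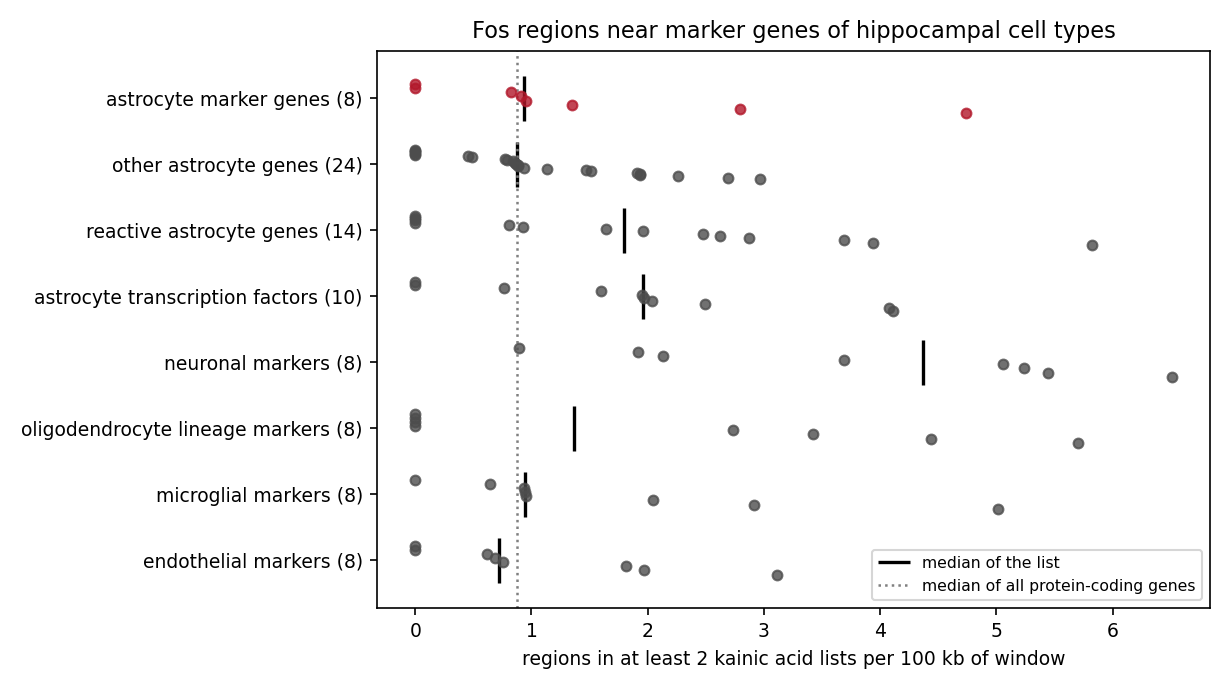
Shared regions per 100 kb of window (horizontal axis) for the genes of each list, 1 point a gene, with the median of the list as a bar and the median of all protein-coding genes (0.872) as a dotted line. The astrocyte markers (median 0.933) lie around the dotted line and the neuronal markers (median 4.37) to its right.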

How the data were processed

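The data were 6 deposited peak lists, 1 per library, none pooled. Per the submitters' processing notes, Trim Galore 0.6.4, Bowtie2 2.3.4.3, MACS2 and deepTools 3.5.0 were used with build mm10. The names in the deposited lists show trimming and a mapping quality filter of 30. Neither the cutoff nor the control library is given in the sources used here. The authors' fold is a linear ratio, given with −log10 p and −log10 q, and the authors' score is 10 times −log10 q. All belong to 1 library and are not scaled between libraries. Folds are printed as values of their own list, and a difference in fold between libraries gives no change in binding. For comparison across lists, ranks within a list were used. Read totals are unknown. Reads at a summit (k) were solved from the deposited fold, (k + 1)/(background + 1), and the Poisson p, which matched within 0.001 for 57 of 57 peaks.

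Gene spans came from a RefSeq table of GRCm38.p6, the assembly of mm10, and all 8 symbols matched, as did all 80 of the other lists. Counting, merging and solving were tested on simulated data (Python 3.11.15, pandas 2.3.3, scipy 1.17.1). Per gene, peaks per 100 kb were compared with an exact permutation test, adjusted over all genes. The members, lists and tests were chosen with earlier results of these data known. Named were all members, their strongest region, regions with a saline peak or at an end of the span, the 2 genes of each other list with the most regions (with ties) and those with none, except for the oligodendrocyte list, where the latter are not reported here. Further regions of the members were named after their values were seen. Alternatives varied the reach, the q threshold, the placing and merging of peaks, the length of the lists, the support and the libraries.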

Additional observations from a re-analysis of the deposited data

How the results depend on the processing

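Of 55 alternative values of the 4 main results, 36 stayed within 1.5 times the reported count or within 1 SD, 19 moved by more or changed unit, and 0 reversed. Some of the 36 could not move, since saline lists do not enter the count of shared regions and pairing leaves a mean difference unchanged. For the density, the SD was that of the kainic acid libraries (1.57), so even a fall from 1.85 to 0.398 stayed within it. Only the density difference could reverse. Genes with a shared region (6 of 8) became 3 with −log10 q of at least 5 (54.7% of all genes), 1 with at least 10 (36.1%), 2 with equal numbers of kainic acid peaks (46.3%), 3 in all 3 lists (42.5%) and 3 to 6 with 1 library left out. Genes whose groups did not overlap (3) became 6 within 100 kb (43.8% of all genes), 1 with −log10 q of at least 10 (17.5%), 1 with equal numbers (26.0%) and 3 to 5 with 1 library left out. Shared regions (13) became 7 within 10 kb, 27 within 100 kb, 6 at a −log10 q threshold of 5 and 2 at 10, 4 with equal numbers, 5 in all 3 lists and 5 to 13 with 1 library left out. Fewer peaks, lists or bases enter each of these settings except 100 kb. With peaks merged only at an overlap of at least 50% of the shorter, 11 shared regions were left. The difference in density (1.85 peaks per 100 kb) was 3.45 within 10 kb and 0.978 to 2.50 with 1 library left out. In bases covered it was 829.7 bp per 100 kb. With equal numbers, and also with −log10 q of 10 or more, it was 0.398. Among 112 values for single genes, 37 lay beyond 1.5 times the reported count, 33 of them lower and 4 higher.

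With the replicate block, comparing libraries of the same number as pairs, the difference was 1.85, a mean that pairing cannot change. In every pair, 4 of 8 genes were higher after kainic acid. The share of all genes that met this condition was not counted, so this count has no background and says nothing particular about these genes. The labels do not say that numbers mark a shared day or litter, and deviations of same-numbered libraries across genes correlated at 0.345, 0.336 and -0.000229. Saline replicates 1 and 3 held only 7 and 2 peaks, and their correlations with kainic acid replicate 1 were almost equal (0.3454 and 0.3451). That of saline replicate 2 had the opposite sign (-0.3454). With lists this empty, the deviations in saline follow replicate 2 alone, so these correlations cannot decide whether the numbers mark pairs. The main comparison left the libraries unpaired, since the labels name no pairs.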
